A study of Mus musculus with 14 samples.

Results

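The 4 genes described here, Bdnf, Nptx2, Homer1 and Dusp1, are known to be transcribed in neurons in response to synaptic activity. Their regions were taken as every row of the deposited tables that had values in both exposures and carried 1 of the 4 symbols. This gave 5 of 14881 regions: 2 at Bdnf and 1 each at Nptx2, Homer1 and Dusp1. The genes were picked with earlier results of the same libraries in view, including differences between nicotine and saccharin. They were thus in part chosen by measured signal of the same contrast, and their differences are given as a description, with no test drawn on.

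ChIP-seq for H3K4me3 was run on cortex (cerebral) from C57BL/6J mice at 3 months of age. Nicotine and saccharin solutions were compared in 14 libraries: 4 after postnatal-only nicotine, 4 after postnatal-only saccharin, 3 after nicotine before and after birth, and 3 after saccharin before and after birth. Strain, age and tissue were the same throughout, and the exposures have separate saccharin controls and separate tables. The treatment text is the same for all samples: the solution was given to pregnant mice from conception, withdrawn from offspring at day 21, and followed by rest to day 90. The postnatal-only course is thus known from the group names alone, and whether libraries came from separate animals is not stated.

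H3K4me3, the trimethylated form of lysine 4 of histone H3, is found mainly around the start sites of genes that are active or ready to be transcribed. Neuronal activity raises calcium in the cell, which activates kinases and, through them, transcription factors such as CREB, SRF and MEF2. A first set of genes, among them Fos and Egr1, encodes further transcription factors. Others encode proteins that act at the synapse or limit the signal itself. Bdnf encodes a neurotrophin that binds the receptor TrkB and is transcribed from several alternative promoters. Nptx2 encodes a secreted pentraxin that gathers AMPA-type glutamate receptors. Homer1 encodes a scaffold that ties group I metabotropic glutamate receptors to the postsynaptic density, with a short form induced by activity. Dusp1 encodes a phosphatase that switches off MAP kinases.

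Upstream sequences were read from RefSeq (build GRCm38.p6), in windows of 250 bases before an annotated start. They are shown because CREB is known to bind the palindrome TGACGTCA or its shorter form TGACG, and these genes are known as activity-regulated. RefSeq held windows for 3 of the 4 genes, 10 windows in all: 7 starts of Bdnf, 2 of Homer1 and 1 of Dusp1. Nptx2 had no entry. The 4 windows below run 5′ to 3′ on the strand of the gene, from base 250 to base 1 before the start, with each match to TGACG or its reverse complement CGTCA in capitals. They lie at chr17:26508473-26508722 on the minus strand (Dusp1), chr13:93303507-93303756 on the plus strand (Homer1, start 1), chr2:109692186-109692435 on the plus strand (Bdnf, start 3) and chr2:109674450-109674699 on the plus strand (Bdnf, start 1).
Dusp1: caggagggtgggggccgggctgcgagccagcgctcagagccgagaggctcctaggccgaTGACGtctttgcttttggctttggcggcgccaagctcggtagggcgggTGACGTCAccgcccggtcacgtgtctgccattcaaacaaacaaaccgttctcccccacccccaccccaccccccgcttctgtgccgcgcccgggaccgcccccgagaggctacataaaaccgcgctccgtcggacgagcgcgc
Homer1 start 1: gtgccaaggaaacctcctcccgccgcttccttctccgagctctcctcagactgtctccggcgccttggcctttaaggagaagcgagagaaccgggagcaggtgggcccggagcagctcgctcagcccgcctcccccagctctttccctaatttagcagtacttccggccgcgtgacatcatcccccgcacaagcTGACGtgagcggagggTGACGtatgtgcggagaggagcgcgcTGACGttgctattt
Bdnf start 3: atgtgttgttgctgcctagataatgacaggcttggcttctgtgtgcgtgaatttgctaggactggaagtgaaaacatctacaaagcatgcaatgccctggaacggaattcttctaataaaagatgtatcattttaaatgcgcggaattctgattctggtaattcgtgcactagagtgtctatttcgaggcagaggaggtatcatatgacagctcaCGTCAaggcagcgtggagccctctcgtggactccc
Bdnf start 1: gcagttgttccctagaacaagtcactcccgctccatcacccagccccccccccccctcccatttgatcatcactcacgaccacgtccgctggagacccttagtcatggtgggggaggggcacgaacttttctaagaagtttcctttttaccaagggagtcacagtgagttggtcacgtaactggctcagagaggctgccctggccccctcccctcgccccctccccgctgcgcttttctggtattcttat

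The Dusp1 window held the full palindrome TGACGTCA, whose first letter lies 143 bases before the start. Of 32851 RefSeq promoter windows of the same length, 1.55% held it. It counts as 2 overlapping matches to TGACG, and another TGACG lies 191 bases before the start. The Homer1 window at the first start held 3 separate matches to TGACG, 56, 40 and 14 bases before the start. 17.8% of all windows held at least 1 match and 0.688% held 3 or more. Among the Bdnf windows, the one at start 3 held 1 match, CGTCA, 35 bases before the start, and the other 6 held none. Searched on both strands, TATAAA and the CArG box bound by SRF had no match in any of the 10 windows. They were present in 12.4% and 1.47% of all windows. Matches to letters are no evidence of binding.

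CpG content differed between starts of the same gene. The Dusp1 window held 28 CpG dinucleotides, more than 92.4% of all windows. At Homer1, start 1 held 21, more than 83.7%, and start 2 held 7, more than 53.7%. The 7 Bdnf windows held 1 to 13 CpG, a range that takes in Homer1 start 2, against a median of 6 over all windows.

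The regions themselves are given on build mm9, as deposited. Both Bdnf regions lie on chromosome 2, the first from 109516195 to 109518481 (2286 bp) and the second from 109533241 to 109535291 (2050 bp). Their midpoints are 16928 bp apart and the gap between them is 14760 bp, and no other region with values lies between. RefSeq places Bdnf starts 2 to 5 2332, 17736, 18327 and 19709 bp from start 1, on a different build. Which start each deposited region covers was not determined here. 710 of 10543 gene symbols (6.73%) had 2 or more regions. The Nptx2 region lies on chromosome 5 (145306344 to 145308171, 1827 bp), the Homer1 region on chromosome 13 (94072969 to 94076283, 3314 bp) and the Dusp1 region on chromosome 17 (26643344 to 26646315, 2971 bp). Against a median width of 1583 bp, Homer1 was wider than 98.8% of regions, Dusp1 than 97.1%, the first Bdnf region than 86.7%, the second than 77.8% and Nptx2 than 66.4%. Among regions with values, all 5 stood alone. The nearest such region of another gene or of none was 57145 bp away from Nptx2 and 51267 bp from Dusp1 (Ergic1). For Homer1 it was 109909 bp away (Papd4) and for Bdnf 195173 bp (Lin7c). Whether positions fall in exons, introns or UTRs was not analysed here, since no annotation of build mm9 was used.

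The authors deposited counts of reads in each region after an edgeR adjustment, called signal here. They are not whole, so the raw depth is unknown and no counting interval is given. Summed signal was 2004918 to 2489860 across postnatal libraries and 1445810 to 2372855 across pre- and postnatal ones. Within each postnatal group, library 1 differed from library 2, and library 3 from library 4, by no more than counting noise (variance ratio 1.01 to 1.08). Other pairs of a group had ratios of 2.21 to 2.61. The 4 close pairs were each replaced by their mean and treated as 1 sample, leaving n = 2 per postnatal group and n = 3 per pre- and postnatal group. The 15 regions with a postnatal mean over 3000 took 8.30% to 25.5% of the signal in postnatal libraries and 19.1% to 49.7% in the others. Of the marker genes listed, 9 of 14 neuronal genes had a region, among them Slc17a7, Neurod2 and Tbr1, against 4 of 10 astrocyte, 9 of 12 oligodendrocyte, 5 of 9 endothelial and 2 of 9 microglial genes. Csf1r, Cx3cr1 and Aif1 of microglia, Gfap and Aqp4 of astrocytes and Pecam1 of endothelium had no region with values. In bulk cortex, fewer cells of a type and less mark per cell cannot be told apart.

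Homer1 and Dusp1 carried the densest mark of the 4 genes. Signal per kb of region, used to compare genes, was 113 ± 1.05 for Homer1 in postnatal nicotine samples and 108 ± 13.7 in postnatal saccharin samples (SD, n = 2 each). For Dusp1 it was 103 ± 5.90 and 94.6 ± 4.63 in the same groups. For Nptx2 it was 49.1 ± 1.34 and 62.6 ± 6.39. The second Bdnf region held 29.8 ± 0.733 and 36.4 ± 3.67 per kb, and the first 27.6 ± 4.47 and 25.6 ± 2.61. The median over all regions was 49.0 per kb in postnatal nicotine and 50.2 in postnatal saccharin samples. In saccharin samples Homer1 was thus denser than 81.5% of all regions, Dusp1 than 76.0% and Nptx2 than 58.4%, and the Bdnf regions lay below the median (37.0% for the second and 23.1% for the first). Homer1 and Dusp1 lay within their spread of each other in saccharin samples but not in nicotine samples. The Bdnf regions lay within their spread in nicotine samples but not in saccharin samples, and Nptx2 lay clear of its neighbours in both.

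The order was nearly the same in the other table. After pre- and postnatal exposure, Homer1 had 77.4 ± 6.33 per kb after nicotine and 64.2 ± 4.52 after saccharin (SD, n = 3 per group), and Dusp1 58.7 ± 5.04 and 71.7 ± 8.71. Homer1 ranked above Dusp1 beyond their spread in nicotine samples, and below it within their spread in saccharin samples. Nptx2 held 38.2 ± 5.10 and 39.4 ± 3.93, the second Bdnf region 21.5 ± 4.94 and 22.7 ± 5.12, and the first 18.5 ± 6.69 and 22.1 ± 5.13. Neither Bdnf region differed from the other beyond its spread here. The exposures come in separate tables with no stated common scale, so levels are not compared between them.

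The Bdnf regions were weak for their width. Among the 1000 regions closest in width, the first Bdnf region was denser than 2.40% in postnatal saccharin samples and than 4.20% in pre- and postnatal saccharin samples. For the second region these shares were 12.6% and 6.40%. Nptx2 (40.9% and 43.2%), Dusp1 (49.7% and 69.4%) and Homer1 (60.4% and 62.5%) lay in the middle of regions of their own width. Other activity-regulated genes were also below the median of 50.2 per kb in postnatal saccharin samples. Fos (2163 bp wide) held 31.5, Npas4 (1840 bp) 32.4 and Arc (3507 bp) 41.6, but Egr1 (3192 bp) held 64.5. Their ranks among regions of like width were not computed. The plot of width against density shows both Bdnf regions in the lower part of the cloud.

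**Figure D1:**
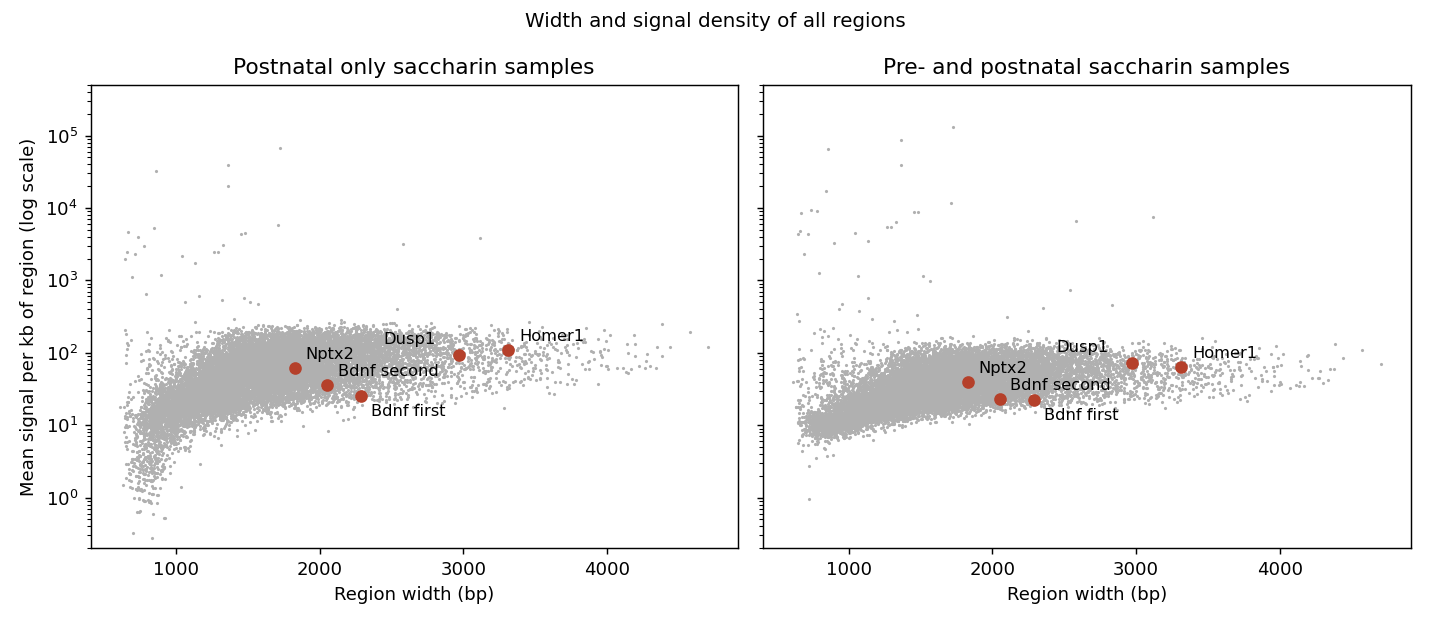
Mean signal per kb of region (log axis) against region width in bp for all 14881 regions (grey points) in saccharin samples of each exposure, with the 5 regions of Bdnf, Nptx2, Homer1 and Dusp1 in red. The Bdnf regions lie in the lower part for their width (25.6 and 36.4 per kb after postnatal saccharin), and Homer1 (108) and Dusp1 (94.6) lie within the cloud of wide regions.

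The first question was whether nicotine given after birth altered the mark at these genes in the adult cortex. Lower signal with nicotine lay at Nptx2 and at the second Bdnf region, and slightly higher signal at Dusp1. Homer1 and the first Bdnf region overlapped between the groups. At Nptx2, nicotine libraries 1 to 4 held a signal of 96.2, 86.6, 88.1 and 87.8, against 112.7, 99.4, 128.5 and 116.6 in saccharin libraries 1 to 4. Every nicotine library lay below every saccharin library, though these are close pairs that count as 2 samples per group. By averaged samples, 14% of all regions lay lower with nicotine, and the share by single libraries was not counted. As samples, Nptx2 averaged 89.7 ± 2.44 after nicotine and 114.3 ± 11.7 after saccharin (SD, n = 2 per group), a log2 difference of -0.34 ± 0.15 (SE). 11.1% of all tested regions had a difference at least as far from 0, and among the 1000 regions of nearest mean its spread between replicates was larger than that of 34.3%.

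The second Bdnf region held 66.8, 53.4, 64.2 and 60.2 in nicotine libraries 1 to 4 and 63.4, 75.3, 88.9 and 71.0 in saccharin libraries 1 to 4. Single libraries overlapped, since nicotine libraries 1 and 3 lay above saccharin library 1, but the averaged samples did not. These were 60.1 and 62.2 with nicotine and 69.3 and 80.0 with saccharin, a log2 difference of -0.28 ± 0.20 (SE), which was -0.18 without saccharin libraries 3 and 4. The first Bdnf region did not follow it: it held 60.2, 51.3, 72.05 and 68.35 with nicotine against 62.1, 63.2, 53.4 and 55.0 with saccharin, a difference of 0.10 ± 0.22. This difference was -0.06 without nicotine libraries 3 and 4 and -0.0020 without saccharin libraries 3 and 4, against 0.26 without nicotine libraries 1 and 2 and 0.20 without saccharin libraries 1 and 2.

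The ratio of the second to the first Bdnf region, formed within a library, does not change with 1 scaling factor per library. Whether the edgeR adjustment was of that kind is not known. The ratio was 1.11, 1.04, 0.892 and 0.881 in postnatal nicotine libraries 1 to 4. In saccharin libraries 1 to 4 it was 1.02, 1.19, 1.67 and 1.29. Saccharin library 3 was highest, and nicotine libraries 1 and 2 lay between saccharin libraries 1 and 2. After pre- and postnatal exposure it was 1.20, 0.716 and 1.44 in nicotine libraries 1, 3 and 4, and 0.674, 1.45 and 0.798 in saccharin libraries 1 to 3. There the groups overlapped fully, so the balance between these regions did not part the treatments in that table.

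Dusp1 held 312.9, 275.1, 302.8 and 334.7 in postnatal nicotine libraries 1 to 4 and 272.8, 270.0, 289.8 and 291.9 in saccharin libraries 1 to 4. Only nicotine library 2 lay within the saccharin range. The samples averaged 306 ± 17.5 with nicotine and 281 ± 13.7 with saccharin, a log2 difference of 0.12 ± 0.11 (SE). This difference was 0.06 under quantile normalization and 0.07 without nicotine libraries 3 and 4 or without saccharin libraries 1 and 2. One at least as far from 0 was found in 47.9% of all tested regions. Homer1 held 352.4, 404.3, 370.2 and 376.6 with nicotine against 389.4, 389.4, 332.9 and 317.9 with saccharin. Its nicotine libraries lay on both sides of saccharin libraries 1 and 2, and its log2 difference of 0.08 ± 0.11 became -0.05 without saccharin libraries 3 and 4, 0.21 without saccharin libraries 1 and 2, and -0.0028 under quantile normalization.

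In limma over all 14873 regions tested, 0 regions passed an adjusted p under 0.05 after postnatal exposure (0% called), and 281 had an unadjusted p under 0.05. 0 of the 5 regions passed, and all 5 entered the test. By the overlap of averaged samples, 2 of the 5 regions lay lower in every nicotine sample and 1 lay higher, where 14% of all regions lay lower and 15% lay higher. Nothing is read from these counts, since the genes were chosen with this contrast known. Beside them, the summed signal of 9 oligodendrocyte marker genes was 720 to 745 in nicotine samples and 713 to 717 in saccharin samples, without overlap. The single genes did not share this direction: 4 lay higher and 5 lower with nicotine, with a median log2 difference of -0.0025. The sums for neuronal (1212 to 1248 and 1226 to 1269), astrocyte (555 to 587 and 552 to 567), endothelial (218 to 234 and 203 to 239) and microglial genes (17.9 to 29.1 and 18.4 to 28.7) overlapped. Their part in the differences was not tested.

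**Figure D2:**
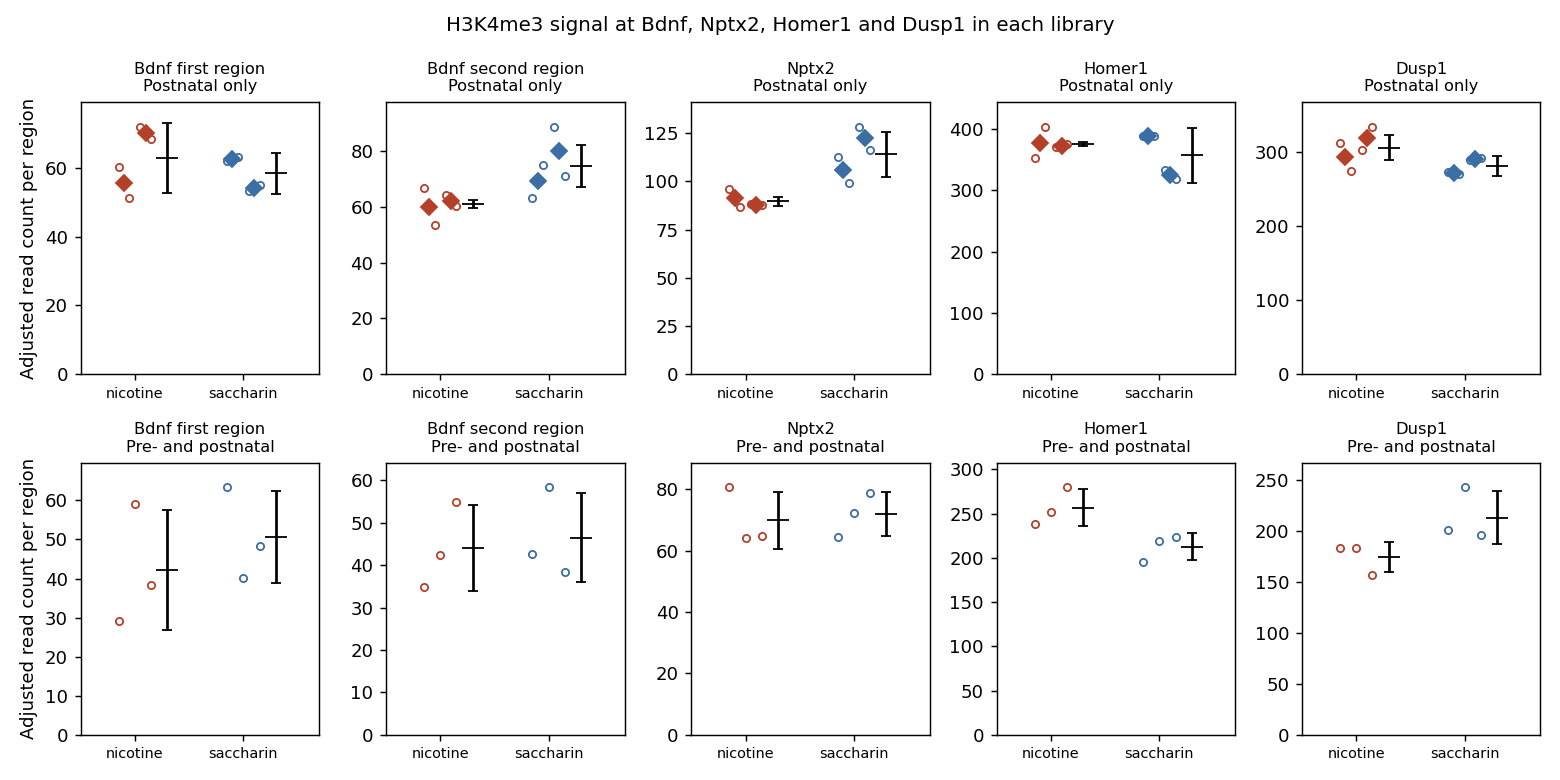
Signal (adjusted read count per region) in each library, with nicotine in red left of saccharin in blue and an axis of its own per panel starting at 0. Open circles are libraries, diamonds the averaged postnatal pairs, and black bars the mean ± SD over samples (n = 2 postnatal, n = 3 pre- and postnatal). At Nptx2 the averaged postnatal nicotine samples (91.4 and 88.0) lie below the saccharin samples (106 and 122.5), as in 14% of all regions. After pre- and postnatal exposure Homer1 lies higher with nicotine (as do 4.49% of all regions) and Dusp1 lower (as do 4.46%).

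The second question was the same for nicotine given before and after birth. Here Homer1 parted upwards (as did 4.49% of all regions) and Dusp1 downwards (as did 4.46%). Nptx2 and both Bdnf regions overlapped. Homer1 held 238.8, 251.4 and 279.7 in nicotine libraries 1, 3 and 4, against 195.6, 218.7 and 223.6 in saccharin libraries 1 to 3. Every nicotine library lay above every saccharin library. The means were 257 ± 21.0 for nicotine and 213 ± 15.0 for saccharin (SD, n = 3 per group), a log2 difference of 0.27 ± 0.14 (SE). It ran from 0.20 under quantile normalization to 0.32 without nicotine library 1. 32.8% of all tested regions had a difference at least as far from 0.

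Dusp1 held 182.9, 183.0 and 157.0 with nicotine against 200.8, 242.7 and 195.5 with saccharin. Every nicotine library lay below every saccharin library, with saccharin library 2 far above the others. The means were 174 ± 15.0 and 213 ± 25.9, a log2 difference of -0.28 ± 0.15 (SE). With the replicate number as a block it was -0.11 ± 0.23. Nicotine library 4 and saccharin library 2 have no partner of the same number and do not enter that blocked difference. Without the block, the difference was -0.19 when saccharin library 2 was left out. With all libraries in, 30.8% of all tested regions had a difference at least as far from 0 as Dusp1.

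At Nptx2 the pre- and postnatal libraries held 80.6, 64.2 and 64.8 with nicotine and 64.5, 72.3 and 78.9 with saccharin. Nicotine library 1 was the highest of all 6, and the other 2 nicotine libraries lay near the lowest saccharin library. The log2 difference was -0.04 ± 0.21 (SE), with a spread smaller than in most regions of similar mean (larger than that of 15.6%), and 86.6% of regions had a difference at least as large. With each library left out in turn it lay between -0.15 and 0.02. The second Bdnf region held 35.0, 42.3 and 55.0 with nicotine and 42.7, 58.4 and 38.5 with saccharin. It overlapped and differed by -0.08 ± 0.27, which was 0.07 without nicotine library 1 and 0.10 without saccharin library 2, and -0.25 without nicotine library 4, -0.13 without saccharin library 1 and -0.20 without saccharin library 3.

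The first Bdnf region had the widest replicate spread of the 5. It held 29.3, 59.1 and 38.3 in nicotine libraries 1, 3 and 4 and 63.4, 40.3 and 48.2 in saccharin libraries 1 to 3, a log2 difference of -0.29 ± 0.29 (SE). Single libraries moved it widely: it was -0.06 without nicotine library 1, -0.56 without nicotine library 3, -0.12 without saccharin library 1 and -0.44 without saccharin library 2. Its residual SD of 0.42 on the log2 scale exceeded that of 73.9% of the 1000 regions of nearest mean. Within each group its order over libraries was that of the share taken by the 15 strongest regions, which was 19.1%, 49.7% and 41.9% in the same nicotine libraries and 39.9%, 28.8% and 33.1% in the saccharin ones. With this share as a covariate the difference was -0.39 ± 0.26. In the postnatal table the order was the reverse: the region held 55.75 and 70.2 in nicotine samples with shares of 25.2% and 10.04%, and 62.7 and 54.2 in saccharin samples with shares of 8.47% and 18.7%.

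In limma over 14879 regions, 0 passed an adjusted p under 0.05 after pre- and postnatal exposure (0% called), and 534 had an unadjusted p under 0.05. 0 of the 5 regions passed. 1 of the 5 lay lower in every nicotine library and 1 lay higher, where 4.46% of all regions lay lower and 4.49% higher, and again nothing is read from these counts. Leaving out nicotine library 1 turned the 0 calls into 17, none of which was among the 5 regions. Dusp1 lay higher in every nicotine sample of the postnatal table and lower in every nicotine library of the other, as did 0.619% of 14871 regions tested in both. None of the 5 showed the opposite pattern, found in 0.612%. Marker sums overlapped between treatments in all 5 lists, for example 746 to 838 with nicotine and 763 to 771 with saccharin for neuronal genes.

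**Figure D3:**
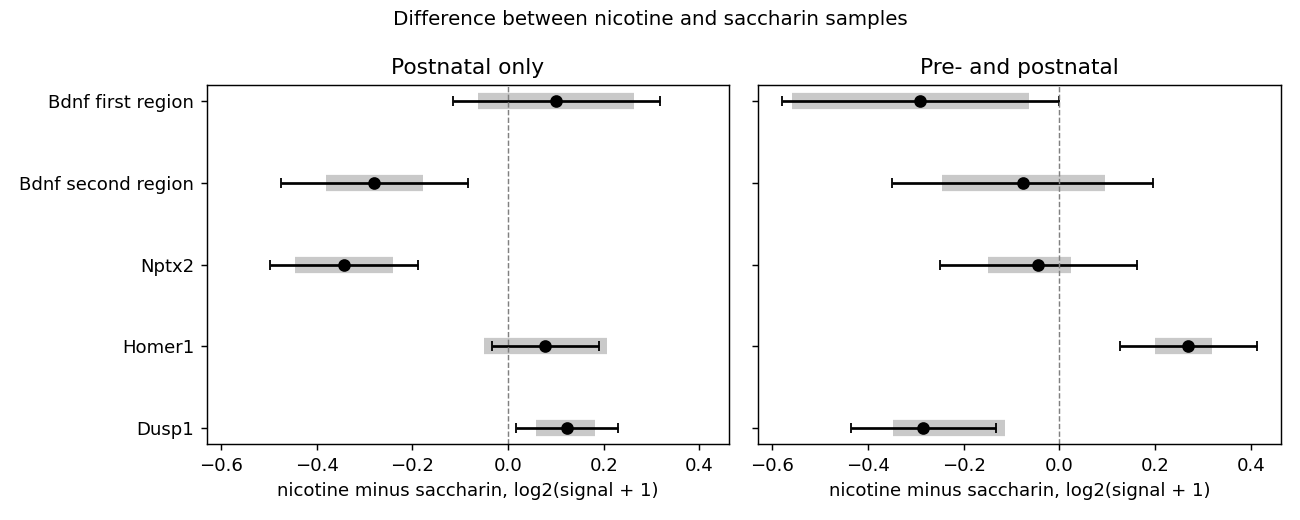
Nicotine minus saccharin on the log2(signal + 1) scale for each region and exposure. Points are the reported differences, black bars ± 1 SE, and grey bands the range over 14 alternative settings. Nptx2 after postnatal exposure (-0.34) and Homer1 after pre- and postnatal exposure (0.27) lie furthest from 0 on their sides among bands that do not cross it.

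Direct relatives of the 4 genes were named whatever their values, and 10 of 11 had a region. Among pentraxins, Nptx1, a paralog of Nptx2, held 361 ± 11.7 after postnatal nicotine and 333 ± 22.8 after saccharin (SD, n = 2 per group), a log2 difference of 0.12 ± 0.11 (SE). Nptxr, the membrane-bound pentraxin receptor, held 471.5 ± 4.44 and 431 ± 2.97, a difference of 0.13 ± 0.10. In both genes the postnatal nicotine samples lay above the saccharin samples (as in 15% of all regions), unlike at Nptx2. Their pre- and postnatal differences were 0.02 ± 0.14 and 0.08 ± 0.15. Per kb, Nptxr (179 with postnatal nicotine and 164 with saccharin) and Nptx1 (104 and 96.3) were more densely marked than Nptx2.

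Among scaffolds, Homer2 held 189 ± 7.81 with postnatal nicotine and 156 ± 6.74 with saccharin, a log2 difference of 0.27 ± 0.12. In the pre- and postnatal table it had 117 ± 10.6 in nicotine and 90.7 ± 9.84 in saccharin libraries (SD, n = 3 per group), a difference of 0.37 ± 0.18. Its nicotine samples lay above its saccharin samples in both tables. Taken alone, 15% of all regions did so after postnatal and 4.49% after pre- and postnatal exposure. The share that did so in both was not counted. Homer3 differed by 0.0038 ± 0.17 and -0.01 ± 0.29. Neither paralog passed the test over all regions.

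For neurotrophins, the TrkB gene Ntrk2 held 187 ± 31.4 with postnatal nicotine and 215 ± 11.4 with saccharin, a difference of -0.22 ± 0.13, and differed by 0.05 ± 0.18 after pre- and postnatal exposure. Dusp4, a nuclear MAP kinase phosphatase, differed by -0.20 ± 0.13 and -0.05 ± 0.18. Fos, a member of the AP-1 factor, differed by 0.02 ± 0.19 and -0.19 ± 0.24, and Egr1, a zinc finger factor, by -0.04 ± 0.12 and 0.03 ± 0.17. Arc, which promotes removal of AMPA receptors, differed by -0.08 ± 0.14 and 0.11 ± 0.19, and Npas4, a factor induced by calcium entry, by -0.22 ± 0.23 and 0.24 ± 0.36. In all of these genes the groups overlapped in both tables. Dusp6 had no region with values.

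Genes around the 4 were grouped in 7 lists, and no listed gene passed over all regions in either exposure. Over all tested regions 49.1% lay higher with nicotine after postnatal exposure (median -0.0036 on the log2 scale) and 50.5% after pre- and postnatal exposure (median 0.0027). Of 22 measured activity-regulated transcription factors, 8 lay higher and 14 lower after postnatal exposure (median -0.07). The lowest p-value among those higher was that of Jund, an AP-1 member (0.15 ± 0.11), and among those lower that of Egr3 (-0.19 ± 0.18). The genes named below were likewise the lowest of their list in each direction. After pre- and postnatal exposure 13 lay higher and 9 lower (median 0.04, and -0.00063 under quantile normalization), with Csrnp1 at 0.45 ± 0.18 and Mafk, a small Maf factor, at -0.56 ± 0.23. Of 21 activity-regulated effector genes, 7 lay higher and 14 lower after postnatal exposure (median -0.06), with Baz1a, a chromatin remodelling subunit, at 0.18 ± 0.11 and Gadd45g at -0.31 ± 0.16. In the other exposure 16 lay higher and 5 lower (median 0.11), with the kinase gene Plk3 at 0.33 ± 0.18 and Ccn1, a matrix-associated protein, at -0.72 ± 0.36.

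Medians of the lists built around each gene lay near 0, but the postnatal neurotrophin list leaned higher. Of 15 neurotrophin signalling genes, 12 lay higher after postnatal exposure (median 0.06), against 49.1% of all regions. Sort1, a sorting receptor that binds the Bdnf precursor, lay at 0.33 ± 0.11 and Ntrk2 at -0.22 ± 0.13. In 6 of the 15 all nicotine samples lay higher (15% of all regions), and in 0 all lower (14%). In limma, 3 of the 15 had an unadjusted p under 0.05, as had 281 of all 14873 regions. Nothing is read from these counts, since the lists were chosen with earlier results known. After pre- and postnatal exposure 9 lay higher (median 0.05), with Sorcs1 at 0.30 ± 0.17 and Ngfr, the p75 receptor, at -0.48 ± 0.49. Of 17 Homer partners, 9 and 8 lay higher (medians 0.0038 and -0.0064), with Grm5, a metabotropic receptor that binds Homer, at -0.55 ± 0.27 after postnatal exposure. Dbn1, an actin-binding protein of spines, lay at 0.33 ± 0.15 and Itpr3, a calcium channel of internal stores, at -0.51 ± 0.29 after pre- and postnatal exposure. Of 11 pentraxin and AMPA receptor genes, 4 and 6 lay higher (medians -0.04 and 0.02, both of the other sign under quantile normalization). Cnih2, an auxiliary subunit, lay at 0.20 ± 0.13 and Gria4 at -0.20 ± 0.16 after postnatal exposure, and Gria3 at 0.77 ± 0.32 and Ptx3 at -0.20 ± 0.28 after pre- and postnatal exposure.

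Of 22 Dusp and MAP kinase genes, 12 lay higher after postnatal exposure (median 0.0076, and -0.03 under quantile normalization) and 10 after pre- and postnatal exposure (median -0.05). Mapk8, the kinase JNK1, lay at 0.22 ± 0.11 after postnatal exposure. Mapk10, the neuronal kinase JNK3, lay at 0.45 ± 0.24 and Dusp9, at a mean signal of 7.47 with nicotine and 13.8 with saccharin, at -0.81 ± 0.51 after pre- and postnatal exposure. Of 27 upstream regulators, 19 and 20 lay higher (medians 0.06 and 0.06, and 0.02 and 0.0067 under quantile normalization). Atf1, a relative of CREB, lay at 0.31 ± 0.11 and Mef2c at -0.51 ± 0.27 after postnatal exposure, and Camk2a, a calcium-dependent kinase, at 0.42 ± 0.20 and Creb1 itself at -0.17 ± 0.16 after pre- and postnatal exposure. The plot of the lists shows the 5 regions within the range of these genes.

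**Figure D4:**
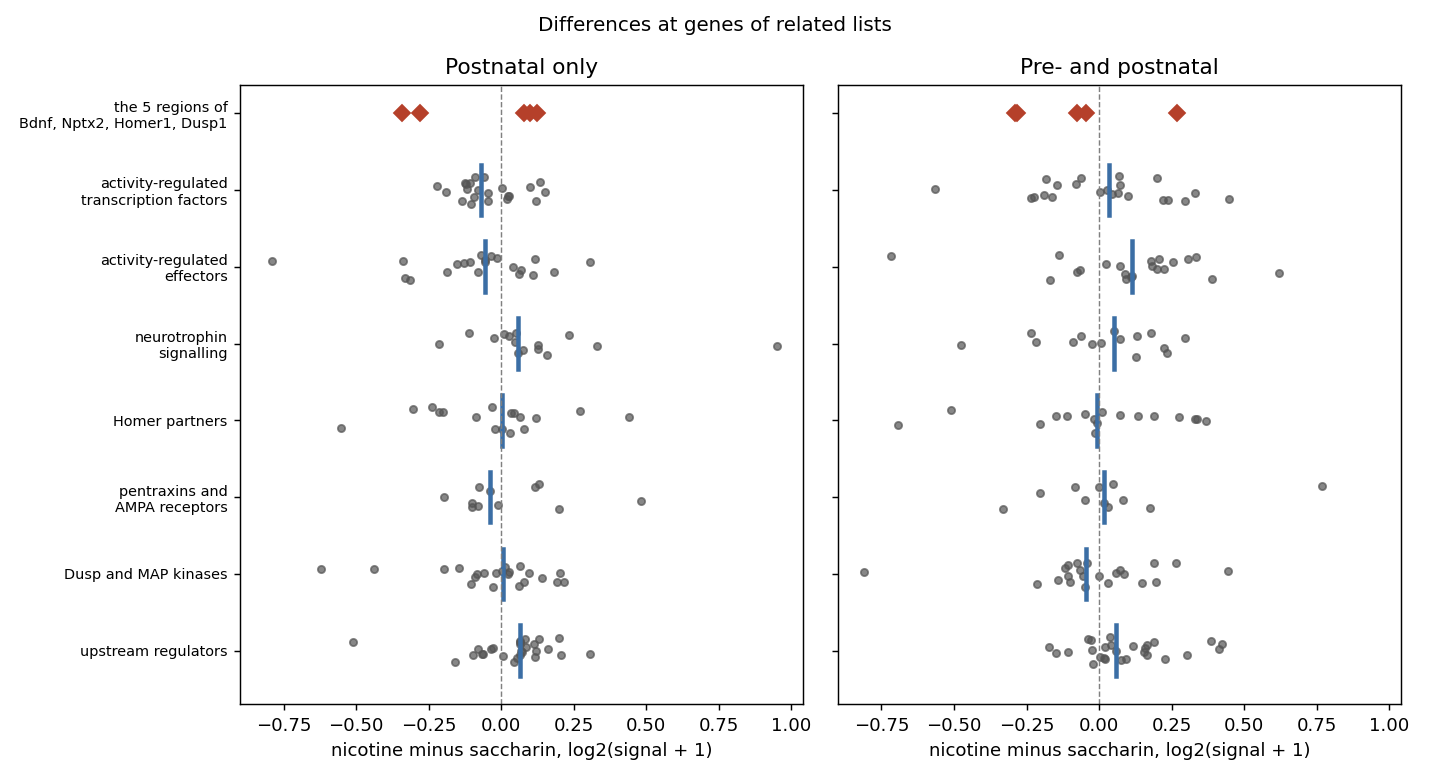
Nicotine minus saccharin on the log2(signal + 1) scale for the 5 regions (red diamonds) and for the measured genes of 7 related lists (grey points, scattered vertically for sight, with the list median as a blue bar). List medians lie between -0.07 and 0.06 after postnatal exposure and between -0.05 and 0.11 after pre- and postnatal exposure.

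Likeness was measured as Pearson's r of log2(signal + 1), after taking off each group's mean, over 10 samples and up to 9109 named regions with a mean of at least 20. The genes most like the second Bdnf region were Rps26 (0.980), Nrsn1 (0.978) and Pkm2 (0.962). For Nptx2 they were Ccdc124 (0.975), Mzf1 (0.964) and Tbc1d2b (0.961), for Homer1 Nup93 (0.949), Rnf144b (0.947) and Bcar1 (0.941), and for Dusp1 Ablim3 (0.965), Ccar1 (0.948) and Zfp862 (0.924). None of these genes appears under more than 1 of the 4. These are the highest of 9108 or 9109 values each, over samples that share tables and scaling, and residuals of pairs in the postnatal groups mirror each other.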

How the data were processed

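Chromatin from formaldehyde-fixed cortex was precipitated, amplified by PCR without stated molecular identifiers and read on a Genome Analyzer, per the labels' protocols. What the authors deposited is a signal, the read count of each region on build mm9 adjusted with edgeR per the submitters' processing notes, in 1 table per exposure. For the aligner, peak caller, versions and filters, the sources used here give nothing. Adjustment removes the raw depth, so precision rests on replicates, and p-values measure the spread between samples, which may be technical. Each table held 19203 rows, of which 4322 without values were left out. Groups and numbers came from sample titles.

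Postnatal library pairs within counting noise were averaged; the comparison used regions whose mean lay between 10 and 1000, reading adjusted values as counts. Since the values are not whole, no count test was used, and limma 3.58.1 with trend (R 4.3.3) was run per exposure on log2(signal + 1), over regions with at least 1 in as many samples as the smaller group, two-sided, with Benjamini-Hochberg adjustment over all regions at 0.05. Fold differences are on that scale and understate low regions. The fit was tested on simulated data. The region of highest mean stood for a listed gene. The genes and lists were chosen with earlier results of these data known; within them, named genes were the relatives, the lowest unadjusted p per list and direction, and the 3 most alike per gene. Alternatives were pseudocounts of 5 and 0.5, other filters and scalings, left-out samples, a replicate block, a share covariate and 8 single postnatal libraries. Promoters came from RefSeq (GRCm38.p6), used for names and sequences only. Figures used matplotlib 3.10.9.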

Additional observations from a re-analysis of the deposited data

Results flagged for a closer look

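Dusp1 lay 0.12 higher on the log2 scale in nicotine samples after postnatal exposure, and 0.06 higher under quantile normalization. Both nicotine samples (294 and 318.8) lay above both saccharin samples (271 and 290.9), but nicotine library 2 lay within the range of the saccharin libraries. A difference at least as far from 0 was found in 47.9% of all tested regions. After pre- and postnatal exposure Dusp1 lay at -0.28, with all 3 nicotine libraries below all 3 saccharin libraries. 30.8% of tested regions differed by at least as much there. The opposite directions drew attention here. The difference between exposures was not tested, since the exposures come in separate tables, and 0.619% of regions showed the same pattern. No group was large enough to look for single outlying samples.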

How the results depend on the processing

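The count of 0 regions called held under every change of pseudocount, filter and scaling, with the share covariate and, after postnatal exposure, with 8 single libraries. Leaving out samples gave 0 to 31 calls after postnatal exposure (7 without nicotine libraries 1 and 2, 31 without nicotine libraries 3 and 4) and 0 to 17 after pre- and postnatal exposure (17 without nicotine library 1). With 1 sample left in a group, its spread is assumed to equal that of the other. The replicate block gave 1 call after postnatal and 0 after pre- and postnatal exposure, and moved Dusp1 there to -0.11. In the pre- and postnatal table it leaves out of the difference nicotine library 4 and saccharin library 2, which have no partner of the same number. The labels do not say that numbers pair samples: deviations of same-numbered samples correlated at -0.465 in the postnatal table and at -0.106 and -0.0982 in the other. A crossed replicate block, added after seeing the data, gave 9 calls. The cause was not tested. None of the 5 regions was called under any setting. Of 140 member differences under alternatives, 139 moved by less than the spread between replicates. Nothing is read from this count, since for many settings it was fixed in advance. In groups this small, leaving out a sample cannot move a difference beyond that spread. The other filters and the postnatal blocks leave it unchanged. The differences of Homer1 and the first Bdnf region (postnatal) and of the second Bdnf region and Nptx2 (pre- and postnatal) changed sign under 2 to 4 settings. The median region had a 95% half-width of 0.39 after postnatal and 0.54 after pre- and postnatal exposure (log2), with narrower intervals at Homer1 and Dusp1 than at Bdnf.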
